A study of Danio rerio with 4 samples.

Results

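The genes described here are those of the Notch signalling pathway together with the Hairy, Hey, Id, proneural and related basic helix-loop-helix (bHLH) transcription regulators of zebrafish. They were chosen by symbol, through names that include notch, dla to dld, dll, jag, her, hey, hes, id, neurod, neurog, atoh, olig, tcf21, hand2, twist, mib, lfng, numb and rbpj, and 1 further gene with a fitting name was not analysed here. A total of 67 probe sets matched, and each gene was represented by its brightest one, which gave 52 of the 8793 genes measured. Of the 52, 49 belong to these families and 3 matched by spelling alone: jagn1b, a jagunal gene of the endoplasmic reticulum, and mibp and mibp2, named for binding of muscle integrin. No values for rbpj, numb or tcf21 were used here.

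Hearts with the tissue around them came from wild type zebrafish embryos at 48 hours post fertilization. One group was kept in 10 μM SU5402, an inhibitor of fibroblast growth factor (FGF) receptor kinases, and control embryos in 1% of the solvent DMSO. Both groups had 2 replicates, hybridised to an Affymetrix array apiece. The labels do not say whether replicates were separate clutches, so p-values reflect array-to-array spread only, and that spread may be technical. When SU5402 was added and for how long is not given in the labels, and each sample holds tissue beside the heart.

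In Notch signalling, a Delta or Jagged ligand on 1 cell binds a Notch receptor on its neighbour, and the receptor is cut. Its inner part enters the nucleus and switches on some, not all, genes of the Hairy (her, hes) and Hey families. Hairy and Hey proteins are repressors, and in the nervous system they hold back proneural bHLH genes such as neurog1, which drive progenitors to become neurons. Id proteins have the helix-loop-helix but lack the DNA-binding basic region, so they tie up bHLH partners, and their genes are known targets of bone morphogenetic protein (BMP) signalling. In the heart, Notch and Hey genes are known from the endocardium and the atrioventricular canal, and hand2 from the formation of the myocardium.

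Signals are given as log2(intensity + 16), and differences as SU5402 minus DMSO on that scale, which understates the difference of dim genes. Background was read from the Tag controls, probe sets without a zebrafish target, whose 95th percentile was 7.25 on this scale. Of the 52 genes, 29 lay above it on all 4 arrays, 12 on some and 11 on none. That share of 55.8% on all 4 arrays stands beside 57.9% of all genes. The heart muscle gene myl7 stood at 13.17 and 12.20 in the SU5402 arrays and at 11.70 and 9.03 in the DMSO arrays, above background on all 4. Of the 11 measured heart muscle markers, 10 were higher after SU5402, as were 43.8% of all genes. The exception was tbx5a at -0.40, which with nkx2.5 and gata4 lay below background on all 4 arrays. The FGF target gene etv5b was read as a check of the inhibitor. It stood at 7.21 and 7.31 in the SU5402 arrays and 10.96 and 11.35 in the DMSO arrays. Its difference (-3.90, limma adjusted p = 0.255) was the largest of 8 measured FGF target genes. Of the 8, 7 were lower, and spry2, below background on all 4 arrays, was at 0.18. These and all later marker and pathway lists were chosen with earlier results of these data known. Their counts are descriptions and not tests.

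Across the genes as a whole, SU5402 arrays and DMSO arrays differed in both directions. No gene passed limma at an adjusted p under 0.05, where the adjusted p ran from 0.255 to 0.992, and 0% of the 15502 probe sets passed (2008 had an unadjusted p under 0.05). At an unadjusted p under 0.05, limma called 9 of the 52, or 17.3%, beside a background of 13.4% of all genes. Of these, 3 were higher after SU5402 (background 5.31%) and 6 were lower (background 8.04%). Both SU5402 arrays lay on 1 side of both DMSO arrays for 23 of the 52, or 44.2%, against 45.6% of all genes. Of the 23, 10 were higher (background 19.3%) and 13 lower (background 26.3%). The share apart was close to that of all genes. Their median difference was -0.02, beside -0.08 over all genes, with 25 genes higher and 27 lower (43.8% of all genes were higher).

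**Figure D1:**
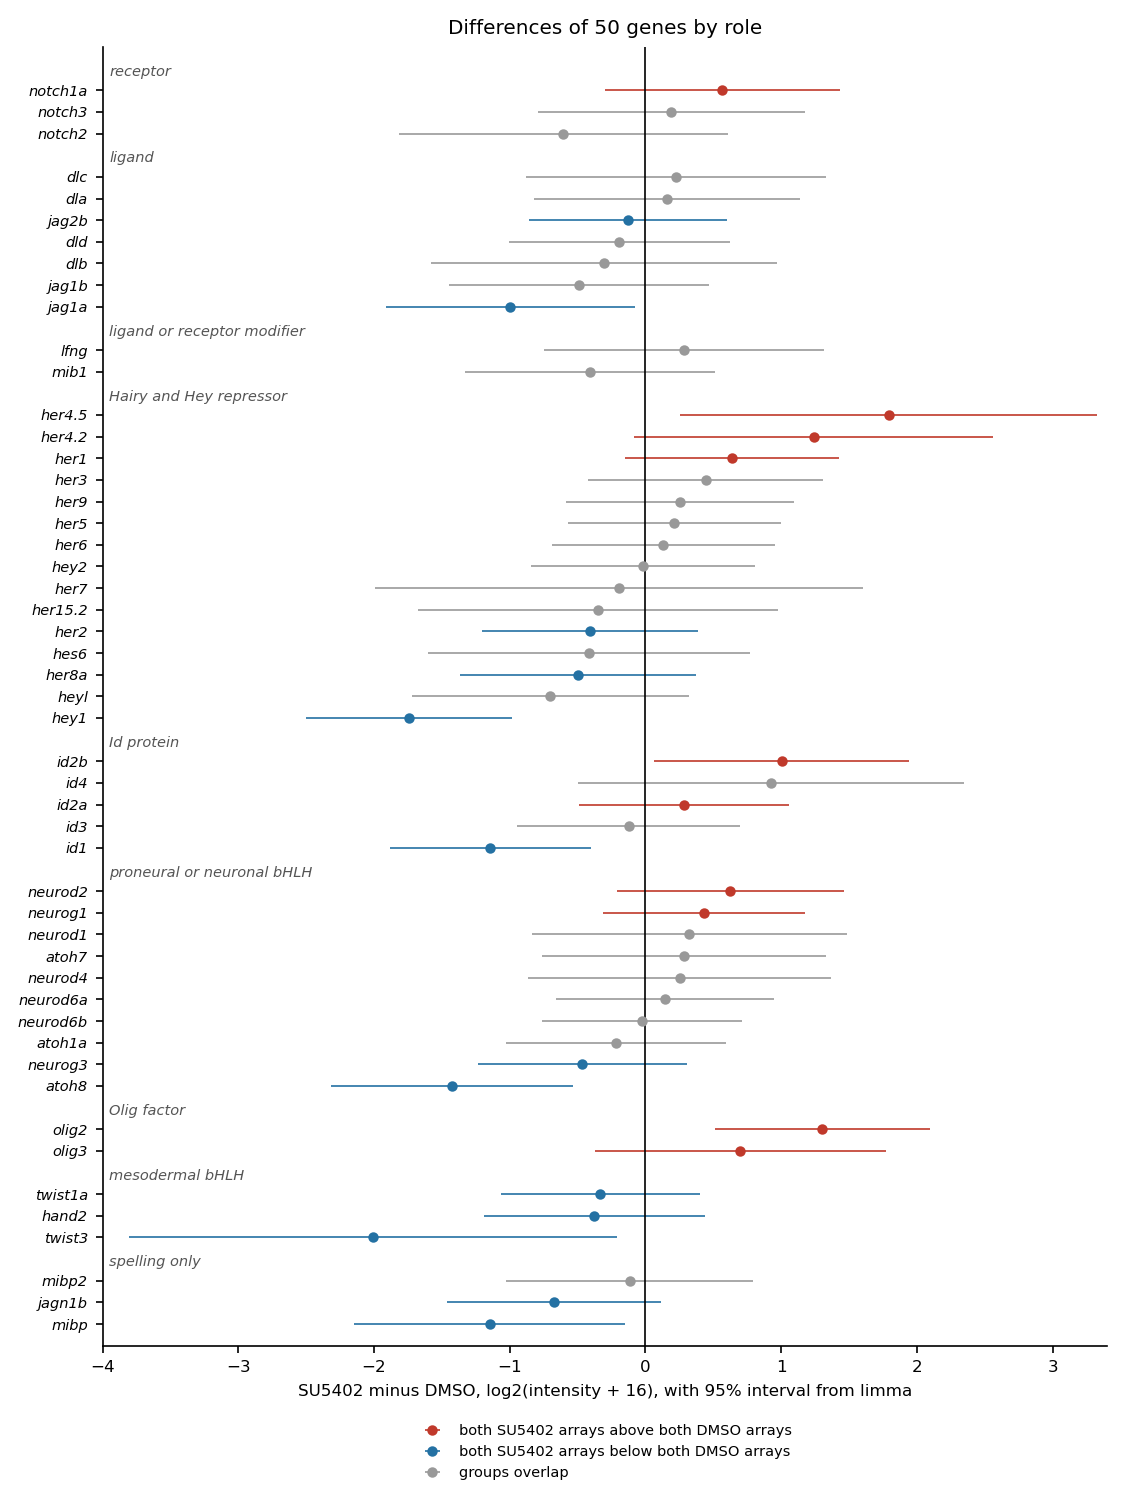
Difference of each of 50 genes (SU5402 minus DMSO, log2(intensity + 16), horizontal axis) with its 95% interval from limma, grouped by role. Red points are genes with both SU5402 arrays above both DMSO arrays (10), blue points the reverse (13), and grey points overlap. The interval covers 0 for 41 of the 50 drawn.

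The genes named with full values are the 9 with an unadjusted p under 0.05 and her4.2, the only other gene with groups apart and a difference of at least 1 log2 unit.

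**Figure D2:**
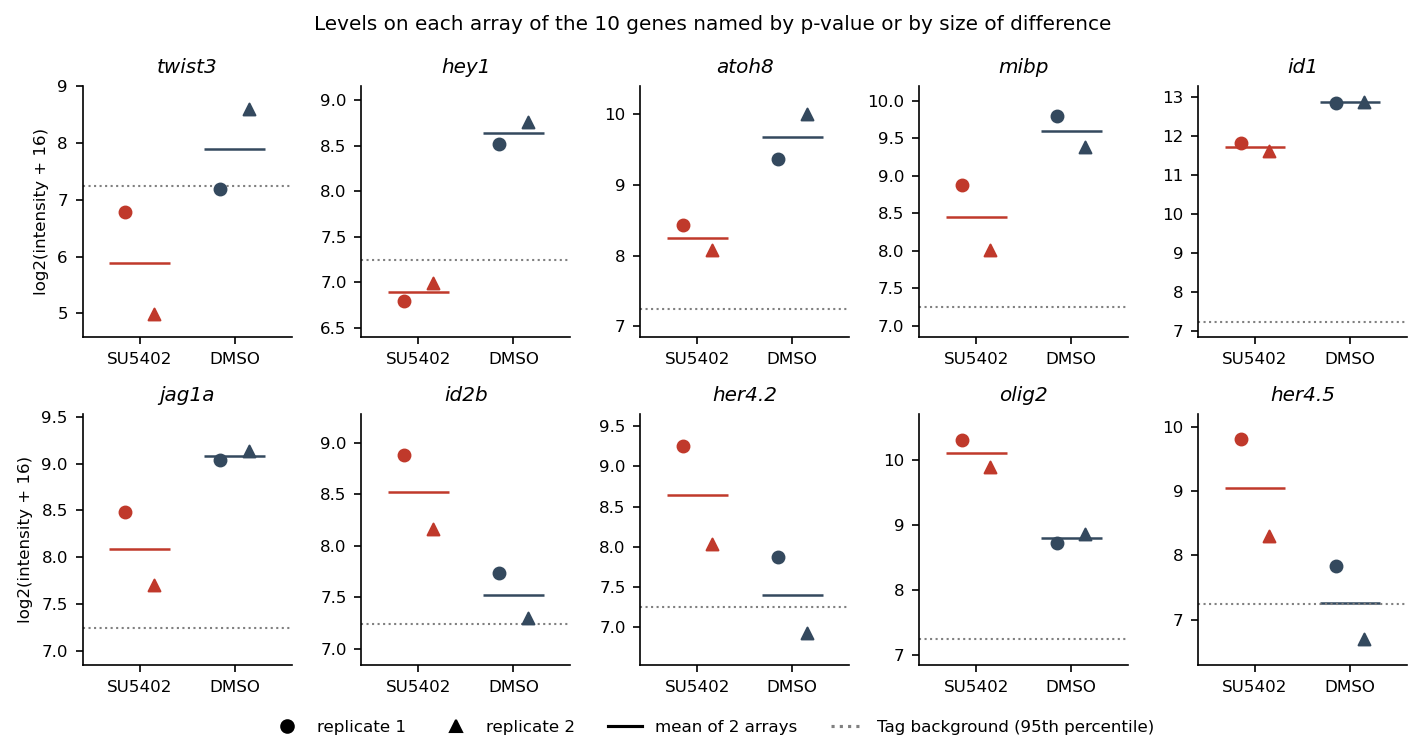
Level on each array (log2(intensity + 16), vertical axis, a separate scale per gene) of the 10 genes named in full, SU5402 left of DMSO, with circles for replicate 1, triangles for replicate 2, bars for the mean of the 2 arrays and a dotted line at the Tag background of 7.25. In every panel the SU5402 and DMSO arrays lie apart, with hey1 and twist3 in the SU5402 arrays under the background line.

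None of the 3 Notch receptor genes had an unadjusted p under 0.05. The receptor gene notch1a stood at 6.90 and 6.47 in the SU5402 arrays and 5.87 and 6.37 in the DMSO arrays, a difference of 0.57 (SE 0.35). The groups did not overlap, but all 4 values were below background, and a second probe set, also below background, was at -0.18. The notch2 probe set used, which was well above background, stood at 8.66 and 10.02 in the SU5402 arrays and 9.95 and 9.93 in the DMSO arrays. SU5402 replicate 1 alone was low. The difference of -0.60 (SE 0.49) became 0.07 without that array and -1.28 without SU5402 replicate 2, and 2 further notch2 probe sets, below background on all 4 arrays, had the opposite sign at 0.15 and 0.27. Gene notch3 stood at 8.65 and 9.10 in the SU5402 arrays and 8.28 and 9.09 in the DMSO arrays, and the groups overlapped (0.19, SE 0.40).

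Among the ligand genes, jag1a had a lower signal after SU5402. Jagged ligands act in many tissues, among them vessels and the skeleton of the pharyngeal arches. Its values were 8.48 and 7.70 in the SU5402 arrays and 9.04 and 9.13 in the DMSO arrays. Both DMSO arrays were close together, and both SU5402 arrays lay below them. The difference was -1.0 (SE 0.37, limma unadjusted p = 0.0378, adjusted p = 0.358), and it was -0.61 without SU5402 replicate 2. The other Jagged genes had the same sign at smaller size. Gene jag1b stood at 7.89 and 8.60 in the SU5402 arrays and 8.48 and 8.99 in the DMSO arrays, with overlap (-0.49, SE 0.39). Gene jag2b stood at 8.88 and 8.86 in the SU5402 arrays and 8.99 and 9.01 in the DMSO arrays. These groups were apart, but by only 0.11 (difference -0.13, SE 0.30).

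None of the 4 Delta genes had groups apart. These ligands mark newly formed neurons in the embryonic nervous system. The differences were -0.30 for dlb, -0.19 for dld, 0.16 for dla and 0.22 for dlc (SE 0.33 to 0.52). The brightest signal of dld was 12.44, in DMSO replicate 2, and its values were 12.25 and 11.88 in the SU5402 arrays and 12.08 and 12.44 in the DMSO arrays. In all 4 Delta genes SU5402 replicate 1 was above SU5402 replicate 2, by 0.37 for dld and by 1.08 for dlb. In 3 of the 4, DMSO replicate 1 was also above DMSO replicate 2, by 0.99 for dlb. Genes that act on ligand or receptor also overlapped. The Fringe glycosyltransferase gene lfng, whose product changes which ligands a Notch receptor answers to, stood at 11.91 and 10.99 in the SU5402 arrays and 11.39 and 10.94 in the DMSO arrays (0.28, SE 0.42). The ubiquitin ligase gene mib1, needed for Delta endocytosis, lay below background on all 4 arrays (-0.41, SE 0.37).

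Other genes of receptor processing and Notch output, taken from a list of 34, were measured for 13. Of these, 4 were higher and 9 lower, with a median of -0.05. At an unadjusted p under 0.05, limma called 0 as lower (8.04% of all genes) and 1 as higher (5.31% of all genes). That gene was furina, of a furin protease that can cleave Notch precursors, at 7.41 and 6.76 in the SU5402 arrays and 6.12 and 6.14 in the DMSO arrays, above background on 1 array. The Notch feedback gene nrarpa stood at 11.85 and 11.74 in the SU5402 arrays and 12.22 and 12.14 in the DMSO arrays, apart but close (-0.38, SE 0.30, limma unadjusted p = 0.247). The γ-secretase genes psen2, psenen and aph1b were at 0.27, -0.05 and -0.05. Hairy proteins recruit Groucho corepressors. From a list of 11 Groucho and other corepressor genes, 5 were measured. These were the Groucho genes tle2a, tle3a and tle3b, and hdac1 and ncor1, which are not Groucho genes. Both tle3a and ncor1 were below background on all 4 arrays. Of the 5, 0 were called and 0 apart, against 13.4% and 45.6% of all genes.

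Of the 3 Hey genes, hey1 was lower after SU5402 and had the lowest p-value of the 52, while heyl and hey2 overlapped. Hey1 is a Notch target of the heart, vessels and nervous system in vertebrates. It stood at 6.80 and 6.99 in the SU5402 arrays and 8.52 and 8.76 in the DMSO arrays. Both SU5402 arrays were below the Tag background and both DMSO arrays above it, with a gap of 1.53 between the nearest arrays. Means were 6.89 ± 0.14 in SU5402 arrays and 8.64 ± 0.17 in DMSO arrays (SD, n = 2 each), a difference of -1.74 (SE 0.31), 3.35-fold lower on this scale, with limma's unadjusted p at 0.00141 and adjusted p at 0.255. With all values below the Tag background raised to it, the difference was -1.39. It ran from -1.86 to -1.62 with each array left out. The related heyl, below background on all 4 arrays, was at -0.70 (SE 0.41) with overlap. Gene hey2, known in zebrafish as gridlock for its role in the aorta, stood at 7.14 and 6.60 in the SU5402 arrays and 6.83 and 6.94 in the DMSO arrays, not above background on any array (-0.02, SE 0.34).

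Endothelial and endocardial markers were lower on the same arrays as hey1 and jag1a. Of 7 measured from a list of 15, 6 were lower and all 6 had groups apart, while 26.3% of all genes were apart and lower. The exception was tie1, at 0.10 with overlap. Their median was -0.65. Markers of fin and arch mesenchyme, described below, were lower on these arrays too, with a median of -2.48. The summed intensity of the 7 endothelial and endocardial markers was 972 and 949 in the SU5402 arrays against 2477 and 2219 in the DMSO arrays. Of these 7, fli1, plvapb and kdrl were at -1.86, -1.86 and -1.11 (SE 0.33, 0.31 and 0.35). Their limma unadjusted p was 0.00137, 0.000988 and 0.0197, and their adjusted p 0.255, 0.255 and 0.298. The markers tie1, tek and flt4 were below background on all 4 arrays and plvapb on both SU5402 arrays, and none was at 0. The part of either tissue in the lower signals of hey1 and jag1a was not tested. In these bulk samples fewer cells of a type and less RNA per cell cannot be told apart.

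The her4 genes, which are Notch targets of neural progenitors related to mammalian Hes5, had higher signals after SU5402. Gene her4.5 stood at 9.81 and 8.30 in the SU5402 arrays and 7.83 and 6.69 in the DMSO arrays. Both SU5402 arrays were above both DMSO arrays, but replicate 1 was well above replicate 2 in each group, and DMSO replicate 2 was below background. The difference was 1.79 (SE 0.62), 3.46-fold higher, with limma's unadjusted p at 0.0292 and adjusted p at 0.336. With values below background raised to it, the difference was 1.51 and limma's unadjusted p 0.162. The difference was 1.04 without SU5402 replicate 1, 2.55 without SU5402 replicate 2 and 2.36 and 1.22 without DMSO replicates 1 and 2.

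Gene her4.2 stood at 9.25 and 8.03 in the SU5402 arrays and 7.88 and 6.93 in the DMSO arrays, a difference of 1.24 (SE 0.54, limma unadjusted p = 0.0622, adjusted p = 0.413). It ran from 0.63 without SU5402 replicate 1 to 1.85 without SU5402 replicate 2. These tandem genes are near-identical copies with 3 other protein-coding genes between them in the RefSeq order, and the probe sets used may bind several of them, so they are not 2 independent readings. Second probe sets were at 1.49 for her4.2 and 1.5 for her4.5, where that of her4.5 was below background on all 4 arrays. Of 2 probe sets annotated to several her4 genes together, 1 was at 1.47 (SE 0.52) and 1 at 0.44 (SE 0.42). The latter, the only her4 probe set above background on all 4 arrays, had groups that overlapped. It stood at 8.65 and 7.64 in the SU5402 arrays and 7.73 and 7.69 in the DMSO arrays. All 6 probe sets of the her4 cluster were higher on average after SU5402, but they may bind the same copies and are not 6 separate readings.

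No other Hairy gene had an unadjusted p under 0.05, and her1, her2 and her8a had groups apart. The genes her6 and her9, related to mammalian Hes1, were well above background. Gene her6 stood at 9.03 and 8.73 in the SU5402 arrays and 8.53 and 8.97 in the DMSO arrays, with overlap (0.13, SE 0.33). Gene her9 stood at 9.90 and 10.00 in the SU5402 arrays and 9.41 and 9.99 in the DMSO arrays, with overlap (0.25, SE 0.34). Gene hes6, whose mammalian counterpart opposes Hes1 and favours differentiation, stood at 9.99 and 8.79 in the SU5402 arrays and 10.07 and 9.55 in the DMSO arrays. Its difference of -0.42 (SE 0.48) was -1.02 when SU5402 replicate 1 was left out and 0.18 when replicate 2 was. The genes her2 and her8a were apart and lower, at -0.41 (SE 0.32) and -0.50 (SE 0.35). Only in the DMSO arrays was her2 above background, while her8a was below it on all 4 arrays, as was its second probe set at -0.06. The somite clock genes her1 and her7, direct neighbours in the genome, were at 0.64 (SE 0.32) and -0.20 (SE 0.73), and her1, higher with its groups 0.35 apart, was below background on all 4 arrays. In her7 the arrays of each group were far apart, at 7.46 and 5.49 in the SU5402 arrays and 6.08 and 7.26 in the DMSO arrays. The remaining her3, her5 and her15.2 overlapped, at 0.44, 0.21 and -0.35, with her5 and her15.2 below background on all 4 arrays. A second her3 probe set was at -0.01, and a probe set annotated to more than 1 her15.2 entry, above background on all 4 arrays, was at 0.62 (SE 0.41).

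Id genes divided by member. Gene id1 stood at 11.83 and 11.63 in the SU5402 arrays and 12.86 and 12.89 in the DMSO arrays. The arrays of each group were close and the groups lay 1.03 apart. The means were 11.73 ± 0.14 in SU5402 arrays and 12.87 ± 0.02 in DMSO arrays (SD, n = 2 each), a difference of -1.14 (SE 0.30), 2.21-fold lower, with limma's unadjusted p at 0.00942 and adjusted p at 0.263. This was far above background in both groups and moved only from -1.24 to -1.04 with an array left out.

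Gene id2b lay on the other side, at 8.88 and 8.17 in the SU5402 arrays and 7.74 and 7.30 in the DMSO arrays. The groups were apart, with DMSO replicate 2 close to background. The difference was 1.00 (SE 0.38, limma unadjusted p = 0.0403, adjusted p = 0.361), and 0.65 without SU5402 replicate 1. A second probe set, below background on all 4 arrays, was at 0.79 (SE 0.32). Gene id4 was high on SU5402 replicate 1 alone, at 12.20 and 10.59 in the SU5402 arrays and 10.75 and 10.19 in the DMSO arrays. Its difference of 0.92 (SE 0.58) was 0.12 without that array and 1.73 without SU5402 replicate 2. Gene id2a was at 0.29 (SE 0.31), apart by 0.03, and id3 at -0.12 (SE 0.33) with overlap.

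Of 18 listed BMP ligand, antagonist and target genes, 13 were measured, 5 higher and 8 lower with a median of -0.23. At an unadjusted p under 0.05, limma called 0 as higher (5.31% of all genes) and 3 as lower (8.04% of all genes). The BMP pseudoreceptor gene bambia, itself a BMP target, stood at 8.79 and 8.88 in the SU5402 arrays and 9.78 and 10.25 in the DMSO arrays (-1.18, SE 0.33). The ligand gene bmp2a was at -2.28 (SE 0.56), with both SU5402 arrays below background at 5.59 and 6.75. The homeobox gene msx1b was at -1.8 (SE 0.62), with its SU5402 arrays apart from each other at 7.99 and 9.59. For bambia, bmp2a and msx1b the adjusted p was 0.267, 0.258 and 0.335 in limma. The inhibitory Smad genes smad6a and smad7, also known BMP targets, were at 0.03 and 0.13 with overlap. The part of BMP signalling in the level of id1 was not tested.

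Among the proneural and neuronal bHLH genes, the balance of signs depended on SU5402 replicate 1. Of 12 genes, 8 were higher and 4 lower with a median of 0.24, against 3 higher, 9 lower and a median of -0.12 without that array. Some members, such as neurod2, neurog1, neurog3 and atoh8, kept their sign with any array left out. Relative to each gene's mean over the 4 arrays, their median was 0.29 and -0.21 in the SU5402 arrays and -0.04 and -0.06 in the DMSO arrays. Groups were apart for 2 higher and 2 lower, or 33.3% of the 12, against 45.6% of all genes. Gene neurod2 stood at 7.70 and 7.26 in the SU5402 arrays and 7.03 and 6.67 in the DMSO arrays (0.63, SE 0.34), and neurog1 at 7.56 and 7.42 in the SU5402 arrays and 7.14 and 6.99 in the DMSO arrays (0.43, SE 0.30). Both genes were above background only in the SU5402 arrays. The neuronal differentiation gene neurod1 was high on SU5402 replicate 1 alone, at 11.85 and 10.58 in the SU5402 arrays and 10.95 and 10.83 in the DMSO arrays. Its difference of 0.32 (SE 0.47) was -0.31 without that array and 0.95 without SU5402 replicate 2. The genes neurod4, neurod6a, neurod6b and the retinal gene atoh7 overlapped, from -0.03 for neurod6b to 0.29 for atoh7. Both neurog3 (-0.46, apart) and the hair cell gene atoh1a (-0.22) were below background on all 4 arrays.

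In this group only atoh8, an Atonal-family gene that in zebrafish is known from retina and muscle, had an unadjusted limma p under 0.05 with all 4 arrays. It stood at 8.43 and 8.08 in the SU5402 arrays and 9.36 and 10.00 in the DMSO arrays. Both SU5402 arrays were lower by at least 0.93, and all 4 values were above background. The difference was -1.42 (SE 0.36), 2.68-fold lower, with limma's unadjusted p at 0.00806 and adjusted p at 0.261, and it ran from -1.74 to -1.11 with an array left out. A second probe set, below background on all 4 arrays, was at -0.16 (SE 0.40), and the mean of both probe sets was at -0.79. Skeletal muscle markers were mixed, with 3 of 10 measured higher and 7 lower. At an unadjusted p under 0.05, limma called 1 as higher (pvalb2, at 1.28) and 2 as lower (myog at -1.60 and myod1 at -1.58). Among all genes, 5.31% were called as higher and 8.04% as lower. Of these, myod1 was below background on all 4 arrays, myog on both SU5402 arrays, and pvalb2 was above it on 1 array. The summed intensity of the 10 was 4897 and 5010 in the SU5402 arrays against 3473 and 8163 in the DMSO arrays. The part of skeletal muscle in the signal of atoh8 was not tested.

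Both Olig genes were higher. The gene olig2, which marks the progenitors of motor neurons and oligodendrocytes, stood at 10.30 and 9.89 in the SU5402 arrays and 8.72 and 8.86 in the DMSO arrays. All values were above background and the nearest arrays of the 2 groups lay 1.02 apart. The means were 10.10 ± 0.29 in SU5402 arrays and 8.79 ± 0.10 in DMSO arrays (SD, n = 2 each), a difference of 1.30 (SE 0.32), 2.47-fold higher, with limma's unadjusted p at 0.00704 and adjusted p at 0.257. With an array left out it ran from 1.09 to 1.51. Gene olig3, of the neural tube, stood at 8.76 and 7.67 in the SU5402 arrays and 7.43 and 7.60 in the DMSO arrays. SU5402 replicate 1 alone was high, and the difference of 0.70 (SE 0.44) was 0.15 without it and 1.24 when SU5402 replicate 2 was left out. A second probe set, below background, was at 0.56.

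Markers of neurons were higher on the same arrays as olig2, the her4 genes and id2b. All 10 measured from a list of 18 were higher with groups apart, as were 19.3% of all genes. This list was chosen with earlier results of these data known. The summed intensity of the 10 was 67981 and 44505 in the SU5402 arrays against 33761 and 26799 in the DMSO arrays. Markers of neural progenitors and glia were not uniformly higher, with 7 of 11 higher and 4 lower. At an unadjusted p under 0.05, limma called 1 as higher (slc1a2b, at 0.84) and 2 as lower (zic2a at -1.95 and slc1a3a at -0.89). The summed intensity of the 11 was 24084 and 15737 in the SU5402 arrays against 18116 and 18282 in the DMSO arrays. In the SU5402 arrays slc1a2b weighs most in this sum. None of these markers was at 0. Of 15 measured genes that act after proneural factors, 11 were higher and 4 lower with a median of 0.69. At an unadjusted p under 0.05, limma called 4 as higher (elavl4, dpysl3, rtn1a and stmn2a, at 1.67, 1.23, 1.00 and 1.1). It called 1 as lower (lhx3, at -1.12 and below background). Among all genes, 5.31% were called as higher and 8.04% as lower. Of the 15, 6 are also among the neuron markers, 3 of the 4 called as higher included, so the lists are not separate readings. The part of neural tissue in the signals of olig2, her4.5, her4.2 and id2b was not tested. E protein genes, whose products pair with proneural factors, were measured for 2 of 4, with tcf12 at -0.61 (SE 0.31) and tcf3a at 1.39 (SE 0.40), where tcf3a was below background on all 4 arrays.

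**Figure D3:**
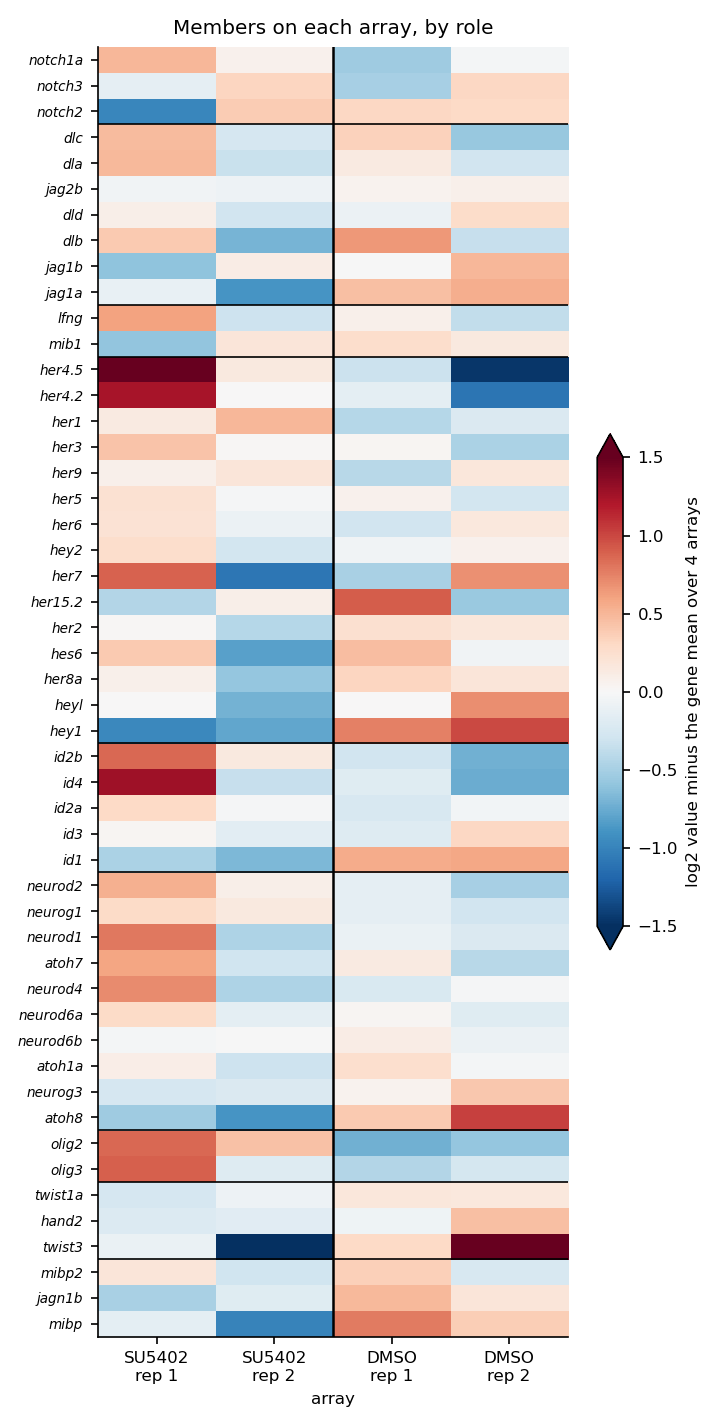
Value of each of 50 genes on each array minus its mean over the 4 arrays (log2, colour), SU5402 arrays left of DMSO arrays, with black lines between roles. Many Delta, proneural and Id genes are higher on SU5402 replicate 1 than on replicate 2. Genes such as hey1, id1, atoh8 and olig2 have the same sign in both arrays of a group. Of these, id1, atoh8 and olig2 are also higher on SU5402 replicate 1 than on replicate 2.

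The replicates of the SU5402 group differed in many of these genes. Signals were higher on SU5402 replicate 1 than on replicate 2 for 39 of the 52, or 75%, against 59.9% of all genes, and for 10 of the 12 proneural and neuronal genes and all 5 Id genes. Neuron markers differed between the same arrays, with a median of 1.02 on SU5402 replicate 1 and 0.11 on replicate 2 relative to each gene's mean. DMSO replicate 1 was above DMSO replicate 2 for 27 of the 52 genes, against 55.6% of all genes. In size, the median gap between the SU5402 arrays was 0.46 for the 52 genes and 0.46 for all genes, and between the DMSO arrays 0.39 and 0.30.

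The bHLH genes of mesoderm and mesenchyme were lower with groups apart, all 3 of them, as were 26.3% of all genes. Only 1 of the 3 was above background on all 4 arrays. Twist genes mark mesenchyme, and hand2 marks the heart, the pharyngeal arches and the pectoral fin bud. Gene hand2 stood at 12.27 and 12.31 in the SU5402 arrays and 12.41 and 12.93 in the DMSO arrays, far above background. The groups were 0.10 apart and the difference of -0.38 (SE 0.33, limma unadjusted p = 0.298) was -0.12 without DMSO replicate 2 and -0.64 without DMSO replicate 1. Gene twist3 stood at 6.79 and 4.98 in the SU5402 arrays and 7.19 and 8.60 in the DMSO arrays, above background on DMSO replicate 2 alone. Its difference of -2.01 (SE 0.73) had an unadjusted p of 0.0341 and an adjusted p of 0.349 in limma. With values below the Tag background raised to it, the difference was -0.68 and limma's unadjusted p 0.379. It was -1.10 without SU5402 replicate 2 and -1.30 without DMSO replicate 2, against -2.91 and -2.71 without SU5402 replicate 1 and DMSO replicate 1. Gene twist1a was at -0.33 (SE 0.30), below background on all 4 arrays.

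Markers of fin and arch mesenchyme were lower on the same arrays. Of 13 measured, 12 were lower, 11 with groups apart, while 26.3% of all genes were apart and lower. The summed intensity of the 13 was 2973 and 7306 in the SU5402 arrays against 35232 and 55114 in the DMSO arrays. The actinodin genes and1, and2 and and3 were the brightest of them in the DMSO arrays and weigh most in this sum. Their SU5402 arrays lay far apart, with and3 at 6.47 and 11.00. The part of the lower mesenchyme markers in the signals of twist3 and hand2 was not tested. The heart muscle markers had a summed intensity of 45039 and 36397 in the SU5402 arrays against 18943 and 8226 in the DMSO arrays. The part of heart muscle in the signal of hand2 was not tested either.

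Of the 3 genes matched by spelling alone, mibp had an unadjusted p under 0.05. It stood at 8.88 and 8.01 in the SU5402 arrays and 9.80 and 9.39 in the DMSO arrays, apart by 0.51. The difference was -1.15 (SE 0.41, limma unadjusted p = 0.0309, adjusted p = 0.342), and -0.71 without SU5402 replicate 2. Gene jagn1b was apart and lower at -0.68 (SE 0.32), and mibp2 overlapped at -0.12 (SE 0.37). Without these 3, limma called 8 of 49 genes (16.3%, against 13.4% of all genes) at an unadjusted p under 0.05, 3 higher and 5 lower. Groups were apart for 10 higher and 11 lower, or 42.9% of the 49, against 45.6% of all genes. The median difference of the 49 was 0.13.

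**Figure D4:**
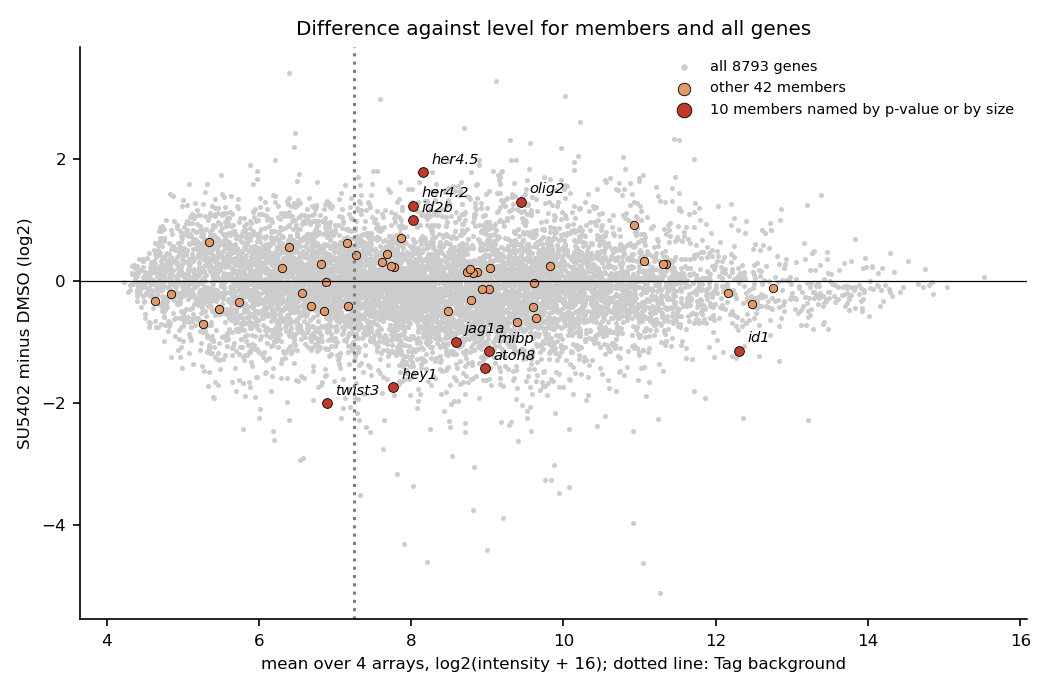
Difference (SU5402 minus DMSO, log2, vertical axis) against the mean log2(intensity + 16) over 4 arrays (horizontal axis) for all 8793 genes in grey, the 10 genes named in full in red and the other 42 in orange, with a dotted line at the Tag background of 7.25. The 52 genes lie within the cloud of all genes, and twist3 alone of the 10 has its mean left of the line.

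The difference of each of the 10 genes named in full kept its sign with any array left out. The calls at an unadjusted p under 0.05 did not all hold. Without DMSO replicate 2, only hey1 and olig2 kept a limma p under 0.05. Without DMSO replicate 1, limma gave atoh8, hey1, twist3, her4.5 and her4.2 a p under 0.05. Without SU5402 replicate 1, olig2 was the only gene called as higher. With values raised to the Tag background, 4 of the 9 calls were kept (atoh8, hey1, id1 and olig2), and jag1a, id2b and mibp were lost beside twist3 and her4.5. At a pseudocount of 1, id2b, jag1a and twist3 had no limma p under 0.05, and atoh8 had none with the mean of its probe sets. Fits without 1 array have a lone array on 1 side, which is assumed to vary like the remaining pair.

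**Figure D5:**
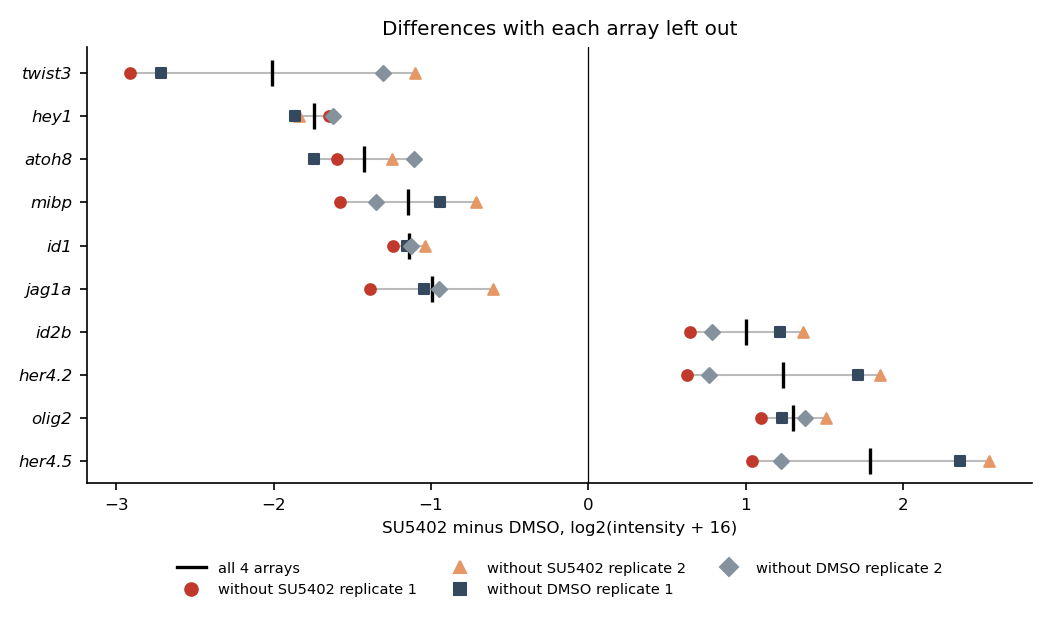
Difference (SU5402 minus DMSO, log2(intensity + 16), horizontal axis) of the 10 genes named in full with all 4 arrays (black bar) and with each array left out (symbols). All points stay on their side of 0, with narrow ranges for hey1 and id1 and the widest for twist3 and her4.5.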

How the data were processed

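Total RNA of heart and surrounding tissue was hybridised to 4 Affymetrix Zebrafish arrays, per the labels' protocols. The deposited values are linear probe set intensities. How they were summarised and scaled is not stated in the labels or headers. All 4 arrays had a 2% trimmed mean of 500.1, which points to a common scaling before deposit. All 4 value columns belong to these samples.

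Intensities were taken to log2(value + 16) and fitted over all 15502 probe sets, without the 115 control probe sets, in limma 3.58.1 (R 4.3.3; lmFit and eBayes) with treatment as the single term, two-sided, with Benjamini-Hochberg adjustment at 0.05. Symbols came from an old platform annotation updated by Entrez identifier (10711 probe sets with 1 symbol matched, 84 kept the old symbol, 135 had several and 4572 none). No dim probe set was removed. The fit was run on simulated data with independent noise drawn from its own variance model. That checks the calculation and not whether the model suits these arrays. Members were named in full at an unadjusted p under 0.05, and up to 10 more with groups apart by a difference of at least 1 log2 unit. Genes, 6 pathway lists and 9 marker lists were chosen with earlier results of these data known. With 2 arrays a group, the smallest exact permutation p is 0.333. No set test was run. The alternatives tried are in the closing section. No sequences were used here. The number of arrays limits the precision. Of the 52 genes, 2 are counted in all totals but not reported here by name or drawn in the plots that label each gene.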

Additional observations from a re-analysis of the deposited data

How the results depend on the processing

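The alternatives were a replicate block, quantile normalisation, median centring, pseudocounts of 1 and 64, leaving out the dimmest 50% of probe sets, each array left out, averaging over the probe sets of each gene, and a floor at the Tag background, 12 in all. No member passed an adjusted p under 0.05 in any of them. Over all probe sets the count past it was 0 in limma except 21 with the floor and 0 to 3 with an array left out (3 without SU5402 replicate 2). Members with an unadjusted p under 0.05 numbered 2 (without DMSO replicate 2) to 11 (without SU5402 replicate 2) with an array left out, 5 without DMSO replicate 1, and 6 to 10 otherwise. The 6 with the floor share 4 with the 9, her2 and jag2b being added. Values below the floor are tied there without spread, which can make limma's p-values with the floor too small. Gene jag2b differed by only -0.13 in the main fit. Groups were apart for 14 of the 35 members left without the dimmest probe sets (40% against 48.3% of all genes left), and for 35 to 41 with an array left out, where a lone array overlaps less by construction. The median difference ran from -0.15 to 0.22 with an array left out. With the replicate block, 10 members (19.2%, against 17.4% of all genes) had an unadjusted limma p under 0.05, and its adjusted calls were 0. Without it there were 9 (17.3%, against 13.4% of all genes), and her4.2 was the gene added by the block. Deviations of same-numbered arrays correlated at r = 0.28 across probe sets, which are not independent, and the labels do not say that a number marks a shared clutch. All 10 members named in full kept their sign in every setting they were in. Of the other 42, 13 did, 20 changed sign with some array left out, and 11 were at 0 with the floor. Below the Tag background, differences are limited by signal.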
